A study of Mus musculus with 48 samples.

Results

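Kinesin motor genes were followed through 4 RNA fractions of the mouse cortex at 3 ages. The members were the protein-coding genes of the count table whose symbol begins with Kif or Klc followed by a digit, with identifiers matched to the GENCODE mouse annotation on GRCm38, which gave 43 of 48526 genes. A further 3 of the 46 matching symbols were not protein coding and were left out. Of the 43 members, 35 had enough reads to be tested in at least 1 comparison, 25 were tested in all 28, and 8 were never tested. Kif2b, the only member with no read in any library, is among those 8.

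The 12 animals were wild-type male C57BL/6JRj mice, 4 at 3 weeks (3w), 4 at 5 months (5m) and 4 at 18 months (18m), with no transgene, deletion or treatment in any group. The age given for the middle group differs between the labels, which name 6 months for the samples and 5 months in the protocol, and 5m is used throughout. For the oldest group the protocol gives 18 to 19 months. From each mouse came RNA of the whole cortical homogenate (total homogenate, TH) and of the synaptosomes (SYN), which are nerve terminals pinched off during homogenisation together with attached postsynaptic membrane. Either was sequenced as input RNA and as the RNA in the ribosome pellet under a sucrose cushion (SC), so every mouse contributed input_TH, SC_TH, input_SYN and SC_SYN, 48 libraries in all. Within a list of values the 4 mice of an age always stand in the same order, mice 187 to 190 for 3w, 191 to 194 for 5m and 195 to 198 for 18m. Different ages are different mice.

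Kinesins are ATP-driven motors that walk along microtubules, most of them toward the plus end, which in axons points to the terminal. Kinesin-1 consists of heavy chains, encoded by Kif5a, Kif5b and Kif5c, and cargo-binding light chains, encoded by the Klc genes. Kinesin-2 (Kif3a, Kif3b, Kif3c and Kif17) and kinesin-3 (Kif1a, Kif1b, Kif1c, Kif13a, Kif13b and Kif16b) carry vesicles, organelles and receptors in neurons, and Kif3a with Kif3b also drives transport inside cilia. Other members have other roles: Kif21a and Kif21b restrain microtubule growth, Kif2a takes microtubules apart from their ends, the mitotic kinesins build and move the spindle, and a further group works at cilia. Kif1bp is no motor but a protein that binds kinesins and holds them off the microtubule, and it met the rule by its symbol alone.

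Total counts ran from 9699909 to 13225435 in input_TH, from 3058278 to 15423546 in SC_TH, from 1780267 to 7879536 in input_SYN and from 5341263 to 18590040 in SC_SYN, so low members are measured least precisely in input_SYN. The labelled compartments were checked with marker lists. The 10 neuron markers summed to 5179 to 6286 CPM (counts scaled to a common library total) in input_TH and to 15215 to 16678 CPM in input_SYN, with none at 0. Nuclear RNAs, 6 in the list, summed to 16657 to 19402 CPM in input_TH and to 1621 to 4278 CPM in input_SYN. Glial RNA came along. The 8 astrocyte markers summed to 3726 to 5124 CPM in input_TH and 13329 to 16811 CPM in input_SYN, and the 6 endothelial markers to 133 to 224 and 4.49 to 16.5 CPM. Microglia markers summed to 173 to 207 CPM in input_TH and 347 to 705 CPM in input_SYN. In the pellets, astrocyte markers summed to 5772 to 7071 CPM in SC_TH and 15941 to 19167 CPM in SC_SYN. Microglia markers there summed to 247 to 367 and 561 to 1188 CPM, and endothelial markers to 63.5 to 111 and 6.70 to 22.9 CPM. In a bulk sample, fewer cells or terminals of a type and less RNA in each cannot be told apart.

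The most abundant members map to separate chromosomes or loci on GRCm38: Kif5a to chr10:127225696-127263348 and Kif1a to chr1:93015464-93101951 on the minus strand, Kif5c to chr2:49619298-49774778 and Klc1 to chr12:111758849-111807844 on the plus strand. Levels of different genes are compared per length, as RPKM (CPM per kilobase of exon). Kif5a stood first and Kif1a second in every fraction at 5m. In input_TH, Kif5a had 254 ± 16.0 RPKM (SD, n = 4), Kif1a 132 ± 7.95, Kif5c 89.9 ± 3.75 and Klc1 88.4 ± 1.55, and the ranges of Kif5c and Klc1 overlapped. Kif1b followed at 61.4 ± 2.56 RPKM, then Klc2, Kif3c, Kif21a and Kif5b between 25.5 and 38.4 RPKM, where only Klc2 stood clear of its neighbours. The order changed in SYN: in input_SYN, Kif5a reached 1494 ± 163 RPKM against 286 ± 16.7 for Kif1a and 268 ± 24.4 for Kif5c, whose ranges overlapped. All kinesin genes together took 0.832% of counts in input_TH at 3w, 0.833% at 5m and 0.873% at 18m. In SC_TH they took 0.953%, 0.963% and 0.954%, in input_SYN 1.66%, 1.56% and 1.62%, and in SC_SYN 1.39%, 1.26% and 1.31%. The lowest SYN library, at 1.11%, was above the highest TH library, at 1.00%. Kif5a, Kif1a, Kif1b and Kif5c supplied 67.7% to 71.6% of the kinesin reads in TH and 83.6% to 87.9% in SYN.

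**Figure D1:**
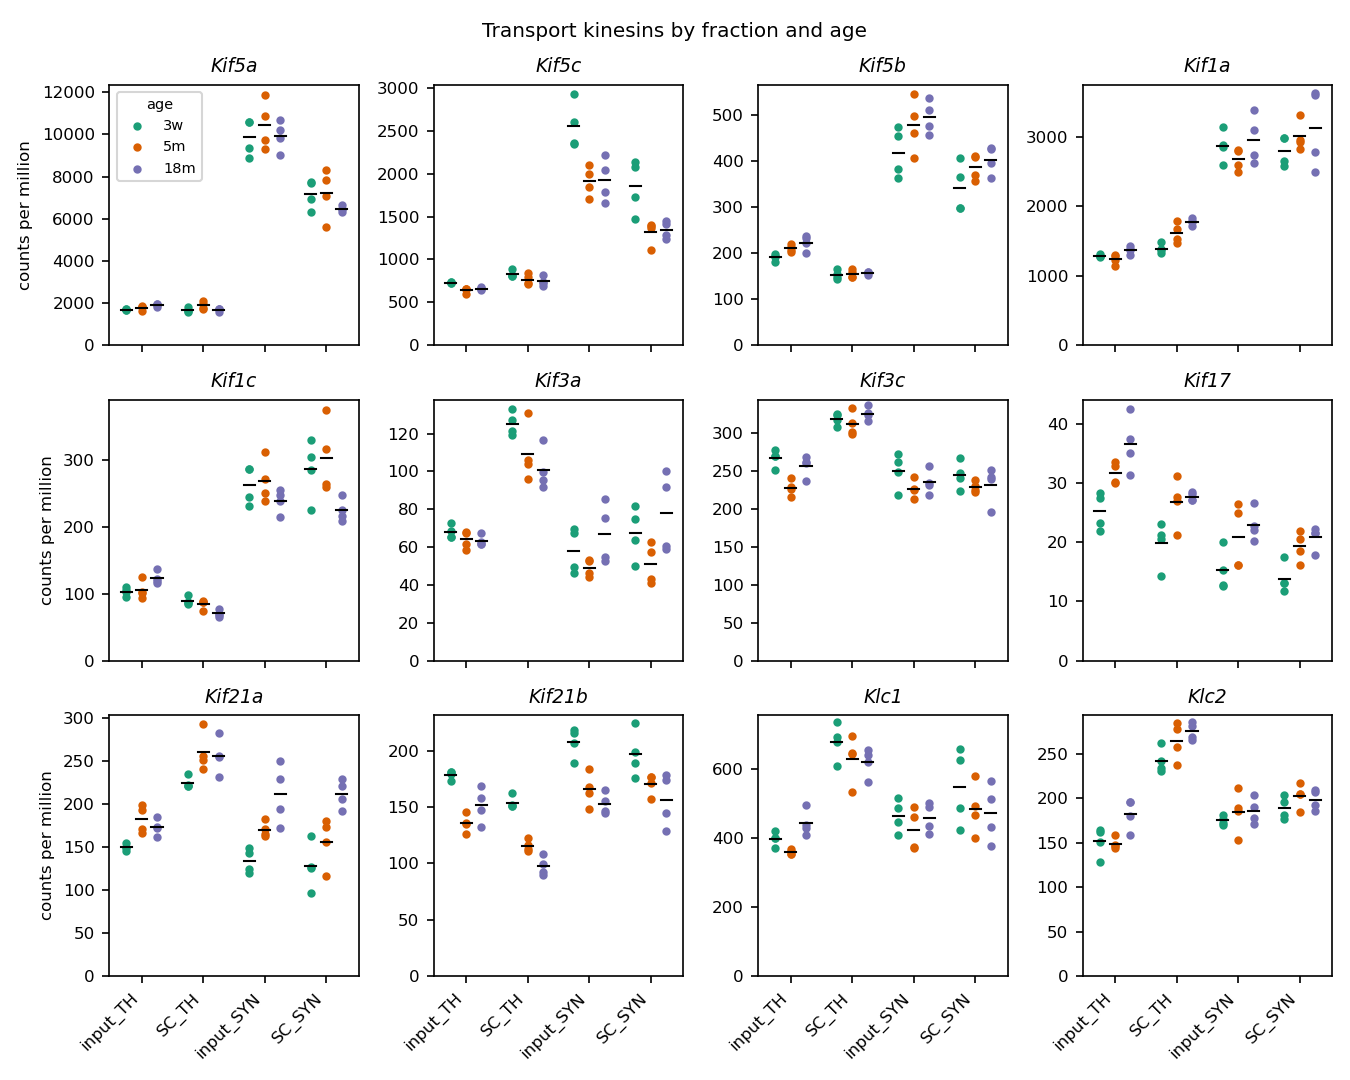
CPM (y axis, linear from 0, a scale of its own in each panel) of 12 kinesin genes in the 4 fractions (x axis) at 3 ages, with 1 point per mouse and a bar at the mean of 4 mice. Kif5a, Kif5c, Kif5b, Kif1a and Kif1c sit higher in both SYN fractions than in both TH fractions at each age, while the means of Klc1 and Klc2 are highest in SC_TH.

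The first question was which kinesin RNAs are more or less abundant on ribosomes and in input RNA of synaptosomes than of the whole tissue. By TMM, the kinesin-1 heavy chains and Kif1a, Kif1b, Kif1c and Kif13a of kinesin-3 were higher in SYN at every age. The kinesin-2 genes were lower or not called on ribosomes. Klc1 and Klc2 went different ways in input and on ribosomes by TMM, but the Klc1 input calls were lost under most alternatives. On ribosomes (SC_SYN against SC_TH), 12 members were higher and 10 lower at 3w, 15 and 11 at 5m, and 15 and 7 at 18m, of 31 tested, by edgeR's quasi-likelihood test with Benjamini-Hochberg adjustment over all genes at 0.05. In that comparison edgeR called 63.5% of all tested genes at 3w (31.1% higher and 32.4% lower), 67.8% at 5m (32.1% and 35.8%) and 62.1% at 18m (29.9% and 32.2%), so a call by itself was common. In input RNA (input_SYN against input_TH), 14 were higher and 11 lower at 3w, 15 and 8 at 5m, and 14 and 3 at 18m, of 33 tested. There 71.0% of all genes were called at 3w (31.7% higher and 39.3% lower), 72.7% at 5m (32.6% and 40.1%) and 72.3% at 18m (32.9% and 39.4%). Of the lower members in input, Kif11, Kif18a, Kif23, Kif6 and Kif9 at 3w passed the filter only through TH reads. So did Kif18a, Kif6 and Kif9 at 5m and Kif9 at 18m. On ribosomes Kif9 passed it through TH and Kif4 through SYN. Such passage favoured the direction called, so these calls by themselves are no support for a difference. The median log2 fold change of the tested members on ribosomes was -0.00404 at 3w, 0.33 at 5m and 0.39 at 18m, against -0.04, -0.09 and -0.07 over all genes. In input it was 0.01, 0.07 and 0.03 against -0.18, -0.18 and -0.12.

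Direction in SYN against TH depends on how libraries are scaled. Scaling by library size in place of TMM lowered the median of all genes by 0.53 to 0.65 on the log2 scale and gave 6 higher and 16 lower members on ribosomes at 3w, 6 and 15 at 5m and 8 and 13 at 18m. In input it gave 7 higher and 20 lower at 3w and at 5m, and 7 and 21 at 18m. With TMM, 9 members were higher in all 6 SYN against TH comparisons: Kif5a, Kif5b, Kif5c, Kif1a, Kif1b, Kif1c, Kif13a, Klc4 and Kif4. Of these, Kif5a, Kif5b, Kif1a, Kif1c and Kif4 were higher in all 6 under every setting tried that kept all mice. Kif17, Kif24 and Kif9 were lower in all 6 with TMM, and Kif17 and Kif24 under every setting that kept all mice. Log2 fold changes that turned sign with library size are named as such where they are given.

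**Figure D2:**
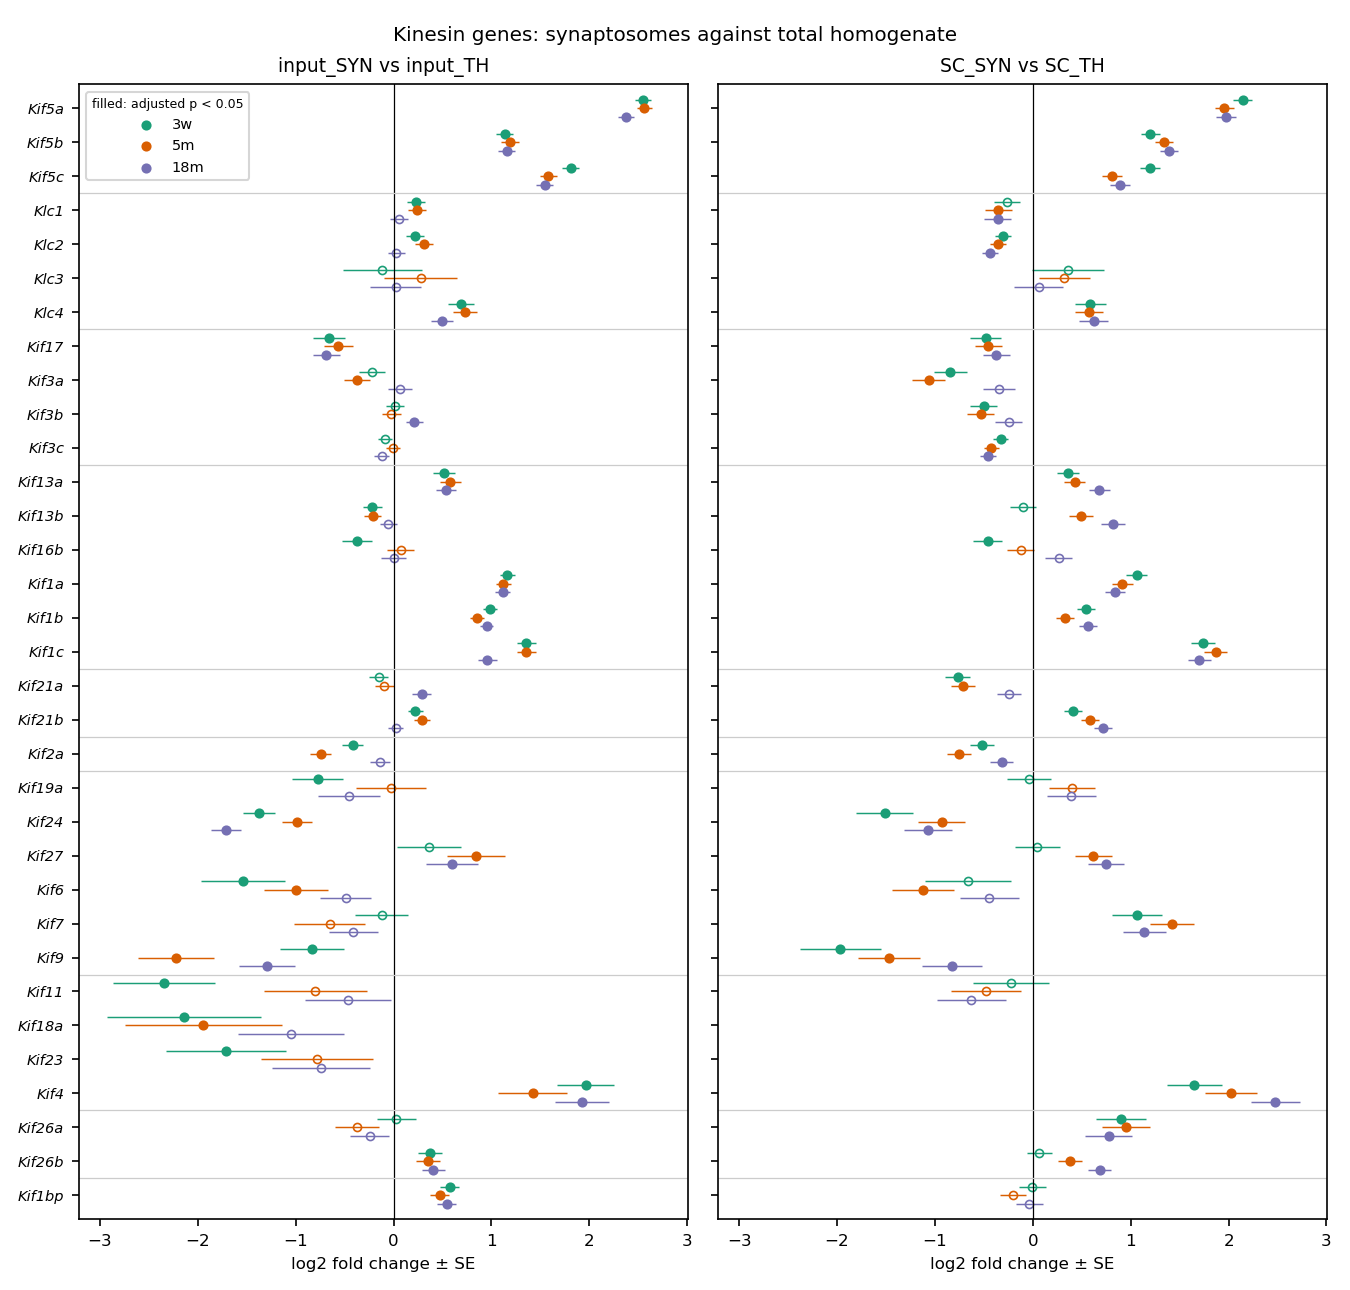
Log2 fold change with its standard error (x axis) of each tested kinesin gene (y axis, grouped by role) in input_SYN against input_TH (left) and SC_SYN against SC_TH (right), with a colour for each age and filled points for adjusted p under 0.05. The 3 heavy chains lie to the right of 0 in both panels at all ages, and Kif17, Kif24 and Kif9 to the left.

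Kif5a, the neuronal kinesin-1 heavy chain that carries neurofilaments among other cargoes, showed the largest log2 fold change of all members in input. In input_TH its level was 1716, 1689.9, 1698 and 1669 CPM at 3w, 1607, 1848, 1809 and 1829 CPM at 5m and 1826, 1974, 1903 and 1968 CPM at 18m. In input_SYN it was 9373, 10569, 10597 and 8866 CPM at 3w, 10858, 11848, 9736 and 9322 CPM at 5m and 10696, 9808, 10192 and 9042 CPM at 18m. No input_SYN library lay below 8866 CPM and no input_TH library above 1974 CPM. The log2 fold change was 2.54 ± 0.08, edgeR adjusted p = 1.53e-19 at 3w, 2.56 ± 0.08 at 5m and 2.38 ± 0.08 at 18m. On ribosomes, SC_TH held 1774, 2087, 1952 and 1739.9 CPM at 5m and SC_SYN 5597, 8304, 7093 and 7856 CPM, again without overlap although the first of these mice was low in SC_SYN. The log2 fold change there was 2.14 ± 0.10 at 3w, 1.96 ± 0.10, edgeR adjusted p = 4.16e-14 at 5m and 1.97 ± 0.10 at 18m.

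Kif5c, the other heavy chain largely restricted to neurons, was higher in SYN by less. At 5m it had 602, 661, 652 and 652 CPM in input_TH and 1995, 2099, 1849 and 1699 CPM in input_SYN, a log2 fold change of 1.58 ± 0.09, edgeR adjusted p = 1.68e-15. On ribosomes the values were 714, 839.6, 793 and 721 CPM in SC_TH and 1115, 1407, 1366 and 1393 CPM in SC_SYN, a log2 fold change of 0.81 ± 0.10, edgeR adjusted p = 1.47e-07. Both pairs of groups were apart, but scaling by library size left a log2 fold change of 0.22 on ribosomes at 5m with an edgeR adjusted p of 0.0517. Kif5b, the heavy chain made in all cell types, had 207, 219.6, 204 and 214 CPM in input_TH and 499, 547, 407 and 462 CPM in input_SYN, and its log2 fold changes lay between 1.13 and 1.19 in input and between 1.20 and 1.39 on ribosomes. Beside these values stand the higher neuron, astrocyte and microglia marker sums of SYN, and the part of such markers in the result was not tested.

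Because the 3 heavy chains differed by unequal amounts, their mix was not the same in both compartments. At 5m Kif5a supplied 68.5 ± 0.633% (SD, n = 4) of the summed heavy chain RPKM in input_TH and 82.0 ± 0.268% in input_SYN. In SC_TH it supplied 68.0 ± 0.348% and in SC_SYN 81.4 ± 1.24%. The Kif5c share was 24.3 ± 0.345% in input_TH and 14.7 ± 0.384% in input_SYN. These shares are descriptions over 4 mice, with no test, and no TH library overlapped with a SYN library of the same kind.

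Kinesin light chains, which bind cargo adaptors through tetratricopeptide repeats, did not follow the heavy chains. Klc1, the main neuronal light chain, had 534, 695, 648 and 644 CPM in SC_TH at 5m and 579, 468, 399 and 492 CPM in SC_SYN. The highest SC_SYN mouse lay above the lowest SC_TH mouse, and they are the same mouse. The log2 fold change was -0.35 ± 0.14, edgeR adjusted p = 0.0252 at 5m, -0.36 ± 0.14, edgeR adjusted p = 0.0253 at 18m and -0.26 ± 0.14 without a call at 3w, and the call was kept in 1 of the 4 fits that left out a mouse at 5m and in 2 of 4 at 18m. In input it went the other way by TMM, 0.23 ± 0.09 at 3w and 0.24 ± 0.09 at 5m, and turned to -0.34 and -0.41 with library size. Both Klc1 input calls were also lost by DESeq2 (0.16 and 0.14) and with no filter on low counts (0.17 and 0.18). They were lost too with the mouse as a block and the trend on GC content and length removed (0.14 and -0.00419). Klc2 was lower in SC_SYN than in SC_TH at all 3 ages, with log2 fold changes of -0.30 ± 0.08, -0.36 ± 0.08 and -0.44 ± 0.08, and at 5m its levels were 238, 285, 258 and 278 CPM in SC_TH and 217, 205, 184 and 205 CPM in SC_SYN, without overlap. In input, Klc2 was also higher in SYN at 3w and 5m by TMM (0.22 and 0.32) and lower by library size (-0.35 and -0.34). Klc4 was the only light chain higher in SYN in all 6 comparisons by TMM (0.58 to 0.62 on ribosomes), at no more than 41.2 CPM in any library, and its sign turned with library size on ribosomes at 5m (-0.01) and in input at 18m (-0.08). Klc3 was called in none of the 6.

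The summed light chain RPKM per summed heavy chain RPKM does not depend on the scaling between libraries. At 5m it was 0.386, 0.351, 0.343 and 0.338 in input_TH and 0.531, 0.574, 0.567 and 0.636 in SC_TH, and only 0.0927, 0.0863, 0.0812 and 0.0897 in input_SYN and 0.213, 0.124, 0.123 and 0.135 in SC_SYN. Means at 3w and 18m were 0.380 and 0.407 in input_TH, 0.626 and 0.623 in SC_TH, 0.0910 and 0.0964 in input_SYN, and 0.145 and 0.151 in SC_SYN. All SYN mice lay below all TH mice at each age. Mouse 191, at 0.213, stood apart within SC_SYN, where the other 3 mice of 5m lay between 0.123 and 0.135.

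**Figure D3:**
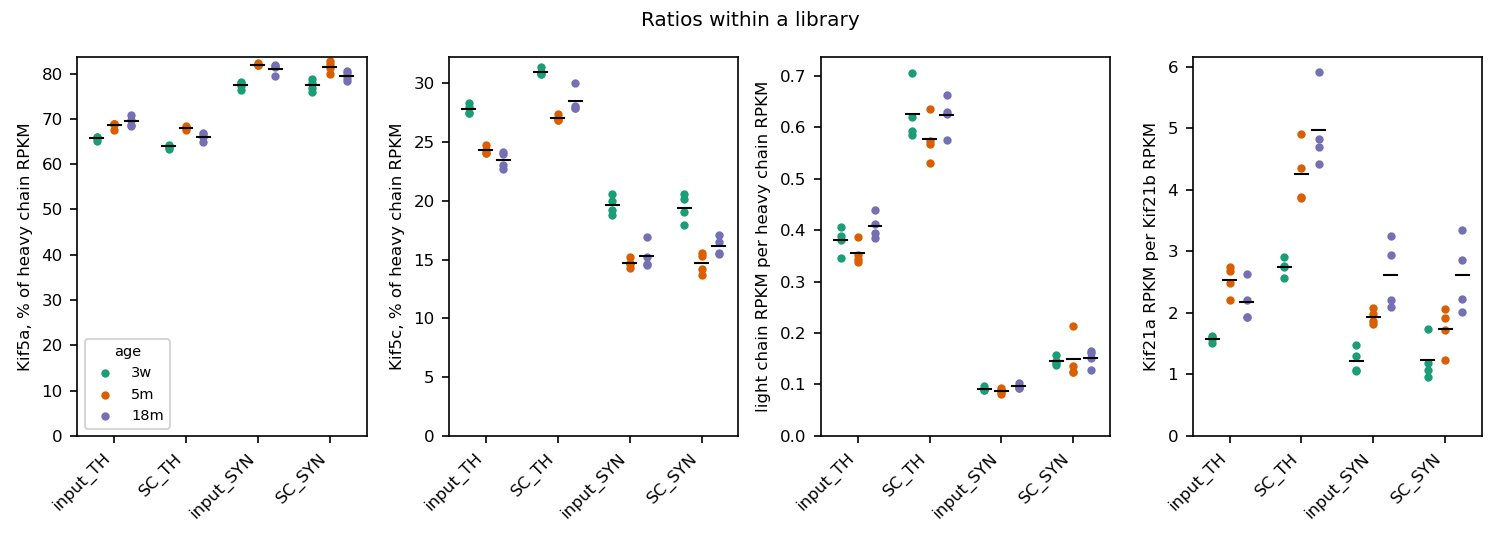
Ratios within the kinesin family in the 4 fractions (x axis) at 3 ages, with 1 point per mouse and a bar at the mean: percent of heavy chain RPKM from Kif5a and from Kif5c, light chain per heavy chain RPKM, and Kif21a per Kif21b RPKM. The Kif5a share runs from 75.9% to 82.7% in SYN and reaches at most 71.0% in TH, the light to heavy chain ratio is at most 0.213 in SYN and at least 0.338 in TH, and the Kif5c share at 3w lies above that at 5m in each fraction.

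Kinesin-2 genes were not higher in SYN on ribosomes at any age. Kif17, which moves NMDA receptor vesicles in dendrites, was the 1 member of the family that was lower in all 6 comparisons. Its level at 5m was 30.2, 32.9, 30.1 and 33.6 CPM in input_TH against 25.0, 16.1, 16.2 and 26.4 CPM in input_SYN, and 27.0, 21.2, 27.6 and 31.3 CPM in SC_TH against 16.2, 18.6, 21.9 and 20.6 CPM in SC_SYN. The input groups were apart, and the ribosome groups overlapped at a single mouse of each. The log2 fold change was -0.56 ± 0.15, edgeR adjusted p = 0.0013 in input and -0.45 ± 0.14, edgeR adjusted p = 0.00619 on ribosomes, and the ribosome call was kept in 1 of 4 fits without a mouse at 3w and 2 of 4 at 18m. Kif3a, the shared subunit of the heterotrimeric motor, had 96.3, 131, 106 and 104 CPM in SC_TH and 41.2, 57.3, 43.2 and 62.9 CPM in SC_SYN at 5m, without overlap, and a log2 fold change of -1.06 ± 0.17, edgeR adjusted p = 4.02e-06. At 18m its SC_SYN values spread from 59.0 to 100 CPM, into the SC_TH range of 91.8 to 117 CPM, and the log2 fold change was -0.35 ± 0.16, edgeR adjusted p = 0.0672. Kif3b followed Kif3a on ribosomes with -0.50 and -0.53 at 3w and 5m. In input at 18m Kif3b was higher by TMM (0.21 ± 0.09, edgeR adjusted p = 0.0328, with overlap) and lower by library size (-0.36). Kif3c, the neuronal partner of Kif3a, had 299, 313, 301 and 332 CPM in SC_TH and 230.3, 222, 237 and 224 CPM in SC_SYN, with no overlap and a log2 fold change of -0.42 ± 0.08, edgeR adjusted p = 5.11e-05, but -0.0047 ± 0.07 in input, where the groups overlapped. Of the Kif3c exonic bases, 40.7% overlap 1110002L01Rik on the other strand, and reads were counted without strand, though that gene passed the test in none of the 6 comparisons.

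Among kinesin-3 motors, Kif1a, which hauls synaptic vesicle precursors and dense-core vesicles, was higher in SYN at every age under every setting that kept all mice. In input_TH at 5m it had 1137, 1279, 1304 and 1221 CPM and in input_SYN 2487, 2599, 2791 and 2811 CPM. In SC_TH it had 1789.9, 1469, 1526 and 1672 CPM and in SC_SYN 2824, 2947, 3314 and 2928 CPM. Neither pair overlapped, and the log2 fold change was 1.12 ± 0.08, edgeR adjusted p = 3.46e-13 in input and 0.92 ± 0.10, edgeR adjusted p = 3.4e-08 on ribosomes. Kif1c, a broadly made member, had the larger log2 fold change on ribosomes, 1.87 ± 0.12, edgeR adjusted p = 1.35e-12, with 74.1, 89.9, 88.0 and 87.3 CPM in SC_TH and 375, 264, 259 and 317 CPM in SC_SYN. Its lowest SYN library of any age had 209 CPM and its highest TH library 137 CPM. Kif1b, with isoforms that carry mitochondria or vesicle precursors, was higher by 0.33 to 0.57 on ribosomes and by 0.85 to 0.98 in input, and the ribosome values turned to -0.01 at 3w and -0.26 at 5m with library size. Kif13a was higher by 0.36 to 0.68 on ribosomes, and its sign turned with library size in all 6 comparisons but ribosomes at 18m. Kif13b was higher on ribosomes by 0.49 at 5m, where library size gave -0.09, and by 0.82 at 18m. In input it was lower in SYN at 3w (-0.22 ± 0.09) and 5m (-0.21 ± 0.09), calls that library size kept (-0.79 and -0.87). Kif16b, an endosomal motor, was lower at 3w (-0.46 on ribosomes and -0.37 in input) and not called later.

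The paired relatives Kif21a and Kif21b moved apart on ribosomes. Kif21a had 256, 294, 252 and 241 CPM in SC_TH and 116, 173, 156 and 181 CPM in SC_SYN at 5m, and the log2 fold change was -0.71 ± 0.12, edgeR adjusted p = 1.54e-05 without overlap. Kif21b had 111, 113, 122 and 117 CPM and 177, 158, 171 and 177 CPM, also without overlap, and 0.58 ± 0.09, edgeR adjusted p = 4.25e-06 in the opposite direction. With library size the Kif21b value was -0.00452 at 5m and -0.14 at 3w, so its direction rests on the scaling, whereas the ratio of Kif21a to Kif21b does not. With the mouse as a block and the trend on GC content and length removed, the Kif21b ribosome calls were lost at 3w (0.13, edgeR adjusted p = 0.232) and 5m (0.18, edgeR adjusted p = 0.0986). Its input values then turned to -0.0212 at 3w and -0.11 at 5m. The ratio was not corrected for that trend. Kif21a RPKM per Kif21b RPKM was 4.36, 4.91, 3.87 and 3.89 in SC_TH and 1.23, 2.06, 1.71 and 1.92 in SC_SYN at 5m. In input RNA at 5m the ratio was 2.53 ± 0.240 in input_TH and 1.94 ± 0.117 in input_SYN, also without overlap. By 18m Kif21a was no longer called on ribosomes (-0.24 ± 0.12, edgeR adjusted p = 0.0897), and in input it was higher by TMM (0.29) and lower by library size (-0.28).

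Kif2a, the depolymerising kinesin-13 of neurons, was lower on SYN ribosomes at all 3 ages, by -0.52, -0.75 and -0.32. Its input levels at 5m were 59.3, 68.9, 69.3 and 65.8 CPM in input_TH and 37.5, 38.7, 45.8 and 35.4 CPM in input_SYN, a log2 fold change of -0.75 ± 0.11, edgeR adjusted p = 9.59e-07 with no overlap. With the mouse as a block and the trend on GC content and length removed, that value turned to 0.44, and the exons of Kif2a are 38.6% GC, the lowest of the members tested in every comparison. Opposite-strand Dimt1, which covers 19.2% of Kif2a exons, was also lower in SYN by -1.04 to -1.69, and the part of shared reads was not tested.

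Members outside the transport families were low, and several were consistently unequal between the compartments. Kif4, a chromosome-binding motor known from dividing cells, was higher in SYN in all 6 comparisons under every setting that kept all mice. On ribosomes at 5m it went from 0.680, 0.574, 0.491 and 0.782 CPM in SC_TH to 2.85, 2.60, 2.83 and 2.27 CPM in SC_SYN, a log2 fold change of 2.02 ± 0.26, edgeR adjusted p = 2.86e-07 on 19, 22, 23 and 26 SC_SYN reads. Its groups did not overlap, and 15.1% of its exons overlap Pdzd11 on the other strand, which was not called in any of these comparisons (-0.17 to 0.28). Kif4 had too few reads to be tested between ages in SC_TH and passed the filter on ribosomes through its SC_SYN reads. That favoured a higher value in SYN, so the Kif4 ribosome calls by themselves are no support for a difference. The 18 proliferation markers summed to 10.6 to 12.3 CPM in SC_TH and 8.39 to 9.48 CPM in SC_SYN at 5m. In input at 3w, Kif11 differed by -2.35 ± 0.53, edgeR adjusted p = 0.000275, with 2.14, 1.79, 2.49 and 1.73 CPM in input_TH and 0.279, 0.275, 0 and 1.29 CPM in input_SYN. Kif18a (-2.14) and Kif23 (-1.71) were also called in that comparison, where an input_SYN library held at most 30 reads over all 11 mitotic members. Kif11, Kif18a and Kif23 had too few reads to be tested between ages in either SYN fraction and passed the filter here through their TH reads, so a lower value in SYN was favoured by the filter and the calls are no support for a difference.

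Cilium-related kinesins went both ways: on ribosomes at 5m, 3 of the 6 tested were lower in SYN and 2 higher, and in input 3 were lower and 1 higher. Kif24, which sits at the mother centriole and curbs cilium formation, had 11.2, 13.2, 13.2 and 13.2 CPM in input_TH and 6.75, 7.37, 5.84 and 5.68 CPM in input_SYN at 5m, and a log2 fold change of -0.99 ± 0.16, edgeR adjusted p = 3.17e-06. On ribosomes it had 5.19, 4.02, 5.50 and 6.94 and 3.00, 2.48, 3.57 and 2.35 CPM, and -0.93 ± 0.24, edgeR adjusted p = 0.00152. Both pairs were apart. Kif9, a motile cilium kinesin, was lower in all 6, with -1.47 ± 0.32, edgeR adjusted p = 0.000269 on ribosomes at 5m, but its input call at 3w was lost with the mouse as a block (-0.81, edgeR adjusted p = 0.0519). Kif6, another motile cilium member, was lower in input at 3w (-1.54) and 5m (-0.99) and on ribosomes at 5m (-1.12 ± 0.32, edgeR adjusted p = 0.00326), where single SC_SYN mice had 0.451, 1.77, 1.35 and 0.872 CPM. Kif9 had too few reads for the age fits of both SYN fractions and Kif6 for that of input_SYN, so there too the filter was passed through TH, which favours a lower value in SYN. Ependymal and motile cilium markers, 10 in the list, summed to 26.4 to 32.9 CPM in SC_TH and to 18.7 to 22.7 CPM in SC_SYN at 5m, and their part in these results was not tested. Kif7, which works in Hedgehog signalling at the cilium tip, was instead higher on SYN ribosomes at every age, from 1.79, 2.01, 2.55 and 1.56 CPM to 7.51, 3.07, 4.93 and 5.49 CPM at 5m (1.42 ± 0.22, edgeR adjusted p = 5.04e-06, no overlap), and called in no input comparison. Kif27, a relative of Kif7 needed for motile cilia, was higher on ribosomes at 5m and 18m (0.62 ± 0.19 and 0.75 ± 0.19) and in input (0.84 ± 0.30 and 0.60 ± 0.27), and with library size these calls were lost (0.03, 0.22, 0.19 and 0.02). The opposite-strand 9330171B17Rik covers 20.3% of Kif7 exons and was not called in these comparisons. Kif26a, a kinesin-like protein without motor activity, was likewise higher on ribosomes at all ages (0.77 to 0.95) and not called in input. With library size Kif26a was not called at 3w (0.36), 5m (0.37) or 18m (0.24), nor Kif7 at 3w (0.52), with the direction kept.

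Next, pellet was compared with input in the same compartment, as a measure of how much of a transcript was recovered with ribosomes. In TH, Klc1, Klc2, the Kif3 genes and Kif1bp were higher in the pellet than in input, whereas in SYN Kif5a and Kif5c were lower in the pellet. In SC_TH against input_TH, 12 members were higher and 7 lower at 3w, 13 and 8 at 5m, and 11 and 13 at 18m, of 35 tested. Of all genes edgeR called 52.8% at 3w (26.1% higher and 26.6% lower), 62.1% at 5m (29.9% and 32.2%) and 64.0% at 18m (31.3% and 32.7%). With library size the 5m split was 11 and 10. In SC_SYN against input_SYN, 2 were higher and 4 lower at 3w and again at 5m, and 1 and 3 at 18m, of 28 tested, against 18.5% of all genes at 3w (9.04% higher and 9.50% lower), 20.0% at 5m (9.66% and 10.3%) and 12.6% at 18m (5.88% and 6.70%). Ribosome pellets can also hold other heavy particles, and the nuclear RNA sum was 5323 to 13834 CPM in SC_TH and 850 to 3526 CPM in SC_SYN.

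**Figure D4:**
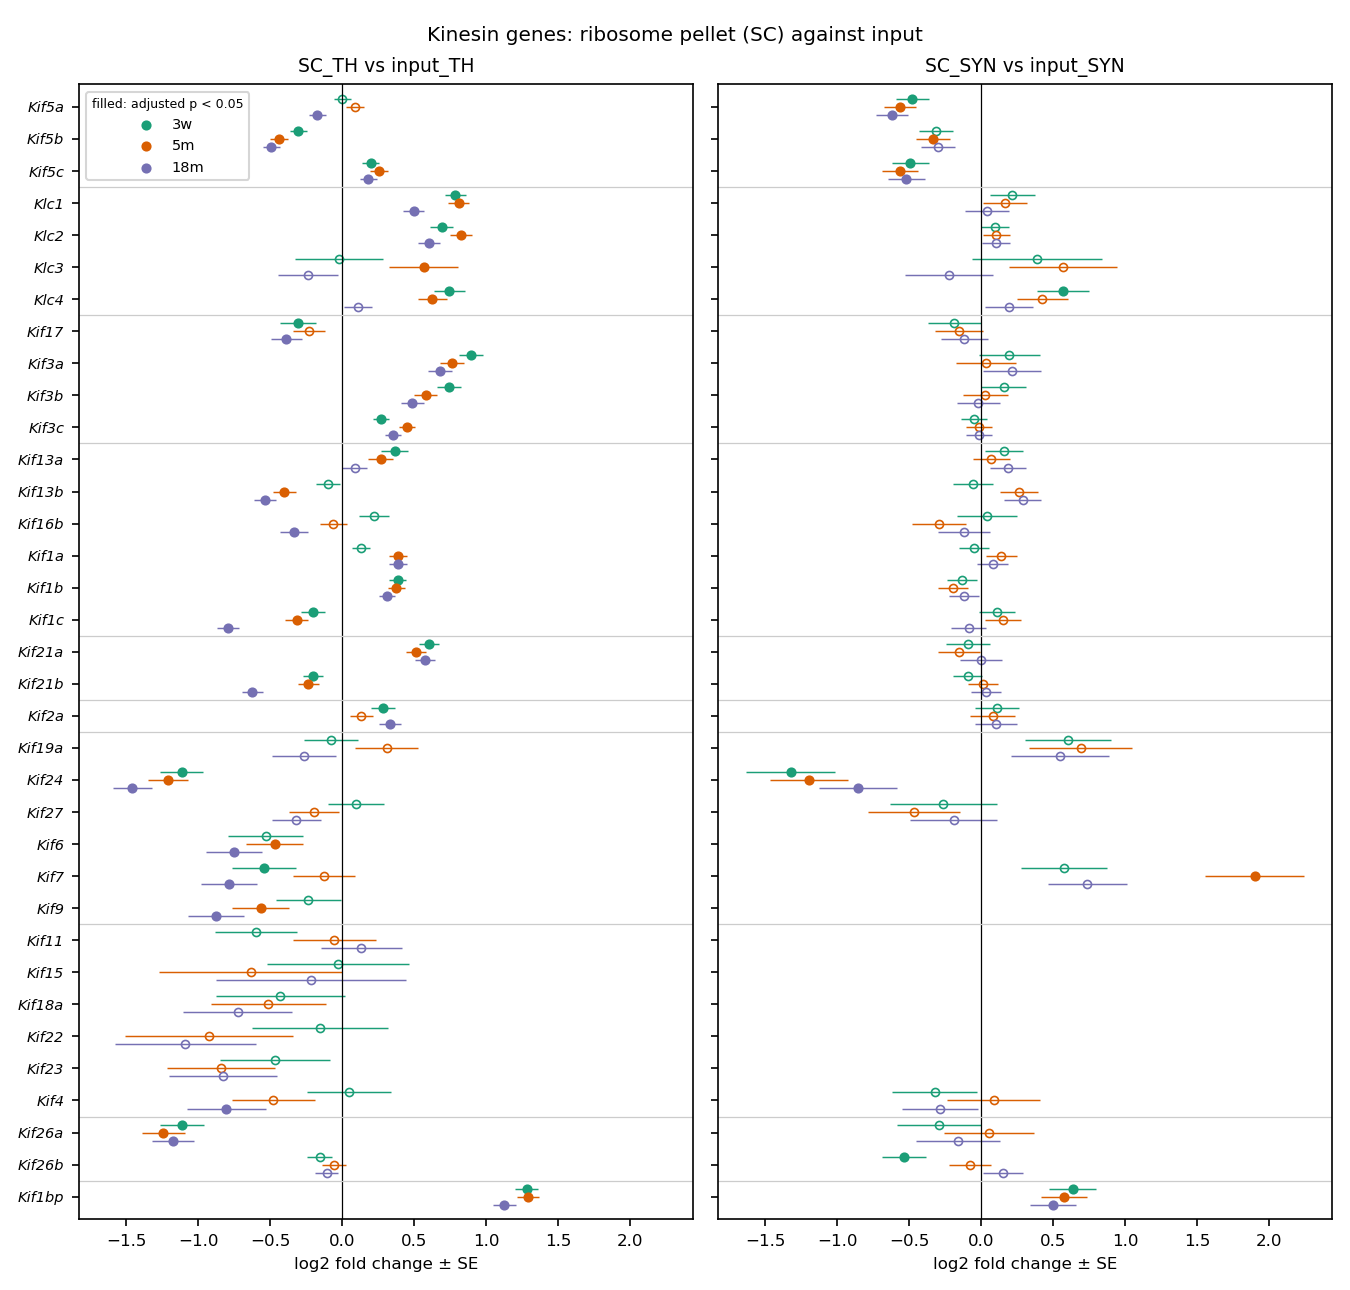
Log2 fold change with its standard error (x axis) of each tested kinesin gene (y axis, grouped by role) in SC_TH against input_TH (left) and SC_SYN against input_SYN (right), with a colour for each age and filled points for adjusted p under 0.05. Klc1, Klc2, Kif3a, Kif3b and Kif1bp lie to the right in TH, and Kif5a and Kif5c lie to the left in SYN at each age.

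Kif1bp, the kinesin-binding inhibitor, had the largest rise from input to pellet in TH at each age, with 63.6, 69.9, 73.1 and 65.7 CPM in input_TH and 142, 190.1, 177 and 159 CPM in SC_TH at 5m and 1.29 ± 0.08, edgeR adjusted p = 2.12e-13. In SYN it was 107, 94.8, 83.5 and 90.2 and 151, 143, 118 and 158 CPM, without overlap, and 0.57 ± 0.16, edgeR adjusted p = 0.0123, a call kept in 2 of 4 fits without a mouse at 5m and 1 of 4 at 18m. Klc1 rose from 361, 368, 355 and 355 CPM in input_TH to 534, 695, 648 and 644 CPM in SC_TH (0.81 ± 0.07, edgeR adjusted p = 4.47e-10). Klc2 rose from 147, 159, 147 and 144 to 238, 285, 258 and 278 CPM (0.83 ± 0.08). None of these groups overlapped. Kif3a went from 58.6, 61.7, 67.6 and 68.3 to 96.3, 131, 106 and 104 CPM (0.76 ± 0.08, edgeR adjusted p = 6.77e-09) and Kif21a from 167, 199, 171 and 193 to 256, 294, 252 and 241 CPM (0.51 ± 0.07, edgeR adjusted p = 3.58e-07), likewise apart. In SYN none of Klc1, Klc2, Kif3a and Kif21a was called at any age. Whether the 2 compartments differ in this ratio was not tested.

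Heavy chains were spread around 0 in TH. At 5m Kif5a was 0.09 ± 0.06 and not called, Kif5c was 0.26 ± 0.06, edgeR adjusted p = 0.000521, and Kif5b was -0.44 ± 0.06, edgeR adjusted p = 4.39e-07, with Kif5b at 207, 219.6, 204 and 214 CPM in input_TH and 148, 166, 159.7 and 149 CPM in SC_TH. In SYN, Kif5a was lower in the pellet at the 3 ages (-0.48 ± 0.11, -0.57 ± 0.11, edgeR adjusted p = 0.000901, and -0.62 ± 0.11), and its 5m ranges of 9322 to 11848 CPM in input and 5597 to 8304 CPM in the pellet did not overlap. For Kif5c the same log2 fold changes were -0.49, -0.56 and -0.52, all called. Among the other named motors, Kif1a was 0.39 ± 0.06, edgeR adjusted p = 7.01e-06 in TH at 5m and was not called in SYN, Kif3c was 0.45 ± 0.06 and Kif17 -0.23 ± 0.11, the last without a call at 5m. Kif24 was lower in the pellet of both compartments at all ages (-1.12 to -1.46 in TH). Kif26a was lower in the pellet in TH (-1.11 to -1.24). Kif7 was lower in TH at 3w (-0.54 ± 0.22), a call lost with the mouse as a block (-0.53, edgeR adjusted p = 0.0953), and at 18m (-0.78 ± 0.20, edgeR adjusted p = 0.000993, without overlap). In SYN at 5m it was higher, with 1.01, 1.38, 1.80 and 1.34 CPM in input and 7.51, 3.07, 4.93 and 5.49 CPM in the pellet (1.90 ± 0.34, edgeR adjusted p = 0.000336). Kif7 had too few reads to be tested between ages in input_SYN and passed the filter here through its SC_SYN reads. That favoured a higher value in the pellet, so this SYN call by itself is no support for a difference.

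The age question was asked within each fraction and across ages between fractions. From 3w to 5m in input_TH, 4 members rose and 7 fell of 33 tested, where edgeR called 11.8% of all genes, 4.76% higher and 7.05% lower. In SC_TH 2 rose and 3 fell of 30, or 1 and 3 with library size, against 17.9% of all genes (9.48% higher and 8.46% lower). In SC_SYN 2 rose and 2 fell of 29, or 1 and 2 with library size, against 8.05% of all genes (4.02% in each direction). In input_SYN 1 of 26 was called, Kif5c, which fell, against 3.22% of all genes (1.28% higher and 1.94% lower). As shares of the members tested these are 33.3% in input_TH, 16.7% in SC_TH, 13.8% in SC_SYN and 3.85% in input_SYN. Depth differed between these ages in the pellets. In SC_SYN total counts were 5415274 to 6132944 at 3w and 8328535 to 14557582 at 5m, without overlap. In SC_TH they were 3058278 to 7119395 and 5992223 to 13484631. The part of depth in the age results was not tested.

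**Figure D5:**
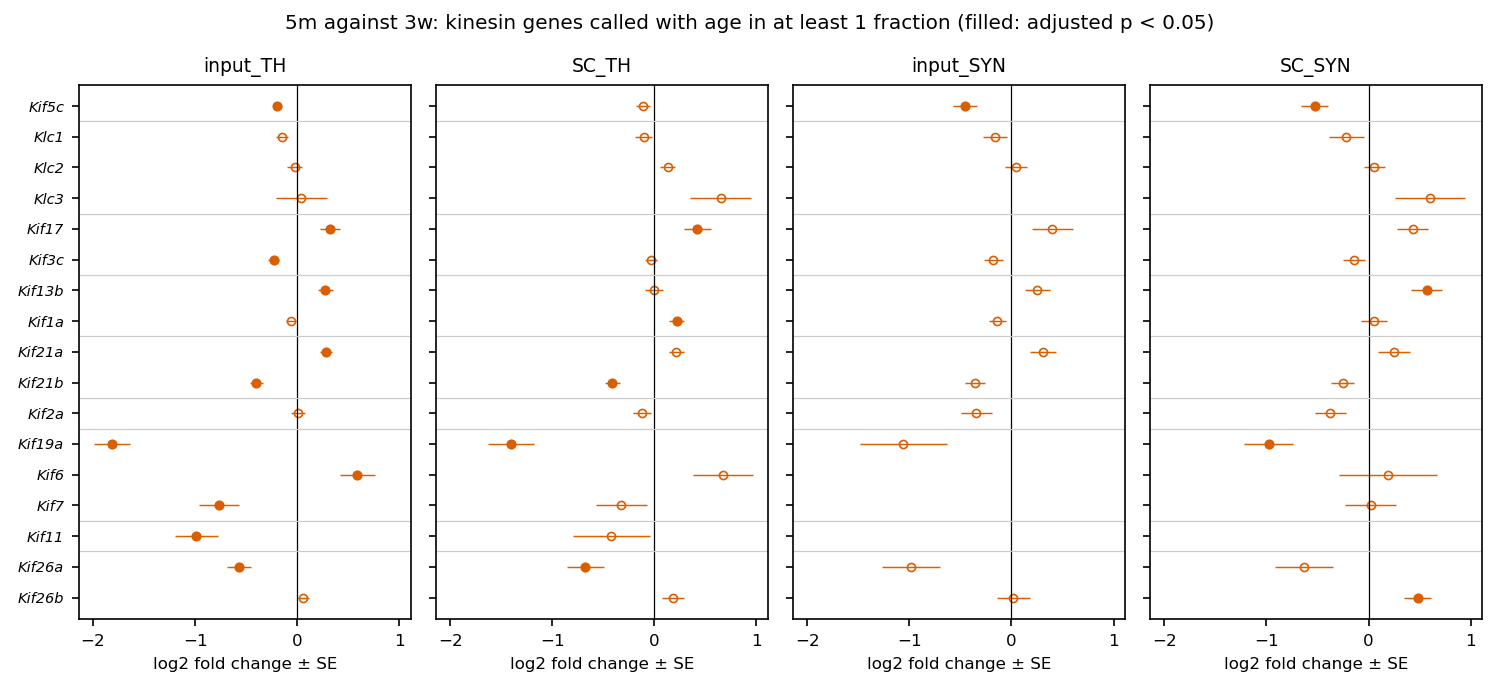
Log2 fold change with its standard error (x axis) from 3w to 5m of the kinesin genes called with age in at least 1 fraction (y axis), in 4 panels for the 4 fractions, with filled points for adjusted p under 0.05. Kif19a lies far to the left in each panel, Kif21b lies to the left in each, and Kif17 and Kif21a lie to the right.

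Kif19a, a depolymerising kinesin that sets the length of motile cilia, fell most. It had 6.35, 8.38, 7.73 and 6.76 CPM at 3w and 2.27, 1.98, 2.21 and 1.82 CPM at 5m in input_TH, on 30, 24, 33 and 26 reads at 5m (-1.81 ± 0.18, edgeR adjusted p = 4.16e-06). In SC_TH it had 7.46, 8.02, 6.92 and 4.40 and then 3.21, 3.16, 1.77 and 2.05 CPM (-1.41 ± 0.22, edgeR adjusted p = 0.000556), and in SC_SYN 6.46, 4.71, 5.86 and 8.53 and then 3.76, 3.90, 2.96 and 2.88 CPM (-0.98 ± 0.24, edgeR adjusted p = 0.0235). The ages did not overlap in any of these 3 fractions, and the SC_SYN call was kept in 5 of the 8 fits that left out a mouse. The ependymal and motile cilium markers did not fall alongside, at 28.4 to 39.1 CPM at 3w and 27.1 to 44.1 CPM at 5m in input_TH, while the 8 oligodendrocyte markers summed to 5282 to 6550 and 2090 to 2368 CPM and the 6 precursor markers to 353 to 404 and 187 to 226 CPM. The part of oligodendrocyte RNA in this result was not tested.

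Kif21b fell and Kif21a rose. Kif21b went from 182, 179, 173 and 182 to 127, 136, 146 and 135 CPM in input_TH (-0.40 ± 0.06, edgeR adjusted p = 0.0006) and from 151, 152, 151 and 163 to 111, 113, 122 and 117 CPM in SC_TH (-0.41 ± 0.07, edgeR adjusted p = 0.00131). Both falls were free of overlap and were kept without any 1 mouse. Kif21a went from 145, 149.6, 149 and 154 to 167, 199, 171 and 193 CPM in input_TH (0.28 ± 0.06, edgeR adjusted p = 0.00507). In SC_TH it was 0.22 ± 0.07, edgeR adjusted p = 0.0527, without a call. The ratio of Kif21a to Kif21b RPKM was 1.51, 1.57, 1.62 and 1.60 at 3w and 2.48, 2.75, 2.21 and 2.68 at 5m in input_TH, and 2.75, 2.91, 2.77 and 2.56 and 4.36, 4.91, 3.87 and 3.89 in SC_TH, with no overlap in either. In input_SYN the means were 1.22 ± 0.203 and 1.94 ± 0.117, also apart, and in SC_SYN 1.24 ± 0.347 and 1.73 ± 0.363, with overlap.

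Of the heavy chains, Kif5c was the member called between 3w and 5m. It fell in input_TH from 729.6, 732, 724 and 741 to 602, 661, 652 and 652 CPM (-0.19 ± 0.04, edgeR adjusted p = 0.00733), in input_SYN from 2361, 2599, 2923 and 2349 to 1995, 2099, 1849 and 1699 CPM (-0.45 ± 0.12, edgeR adjusted p = 0.0445) and in SC_SYN from 1468, 2134, 2076 and 1726 to 1115, 1407, 1366 and 1393 CPM (-0.53 ± 0.13, edgeR adjusted p = 0.0245). In all 3 the older mice lay below the younger ones. The input_TH call was kept in all 8 fits without a mouse, the SC_SYN call in 3 and the input_SYN call in 1. The change in SC_TH was -0.11 ± 0.07, edgeR adjusted p = 0.262, without a call. As a share of heavy chain RPKM, Kif5c was 27.8 ± 0.408% at 3w and 24.3 ± 0.345% at 5m in input_TH, 31.0 ± 0.267% and 27.1 ± 0.243% in SC_TH, 19.7 ± 0.805% and 14.7 ± 0.384% in input_SYN, and 19.4 ± 1.19% and 14.7 ± 0.871% in SC_SYN. The ages did not overlap in any fraction, SC_TH included. Kif5a and Kif5b were called in no fraction, with Kif5a at 0.06 ± 0.05, edgeR adjusted p = 0.484 in input_TH.

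Of the remaining transport motors, Kif17 rose from 27.5, 28.2, 23.3 and 21.8 to 30.2, 32.9, 30.1 and 33.6 CPM in input_TH (0.32 ± 0.10, edgeR adjusted p = 0.0381) and, with overlap between the ages, in SC_TH (0.42 ± 0.13, edgeR adjusted p = 0.0349), calls kept in 4 and 2 of 8 fits without a mouse. Its SC_TH call was lost with the GC and length trend removed (0.22, edgeR adjusted p = 0.232). It was also lost with only the 2 ages compared (0.42, edgeR adjusted p = 0.0783). Kif3c fell from 252, 277, 269 and 269.6 to 216, 241, 226 and 229 CPM in input_TH (-0.23 ± 0.05, edgeR adjusted p = 0.00703), kept in all 8. Kif1a rose in SC_TH from 1371, 1332, 1484 and 1379 to 1789.9, 1469, 1526 and 1672 CPM (0.22 ± 0.07, edgeR adjusted p = 0.0402), with overlap and kept in 3 of 8, and was -0.06 ± 0.05 in input_TH. The Kif1a call in SC_TH was lost with library size (0.19, edgeR adjusted p = 0.0659) and with only the 2 ages compared (0.21, edgeR adjusted p = 0.0919). With the GC and length trend removed it was lost too (0.0769, edgeR adjusted p = 0.348). Kif13b rose in input_TH (0.28 ± 0.07, edgeR adjusted p = 0.0174, kept in 7 of 8 and lost without mouse 190) and in SC_SYN from 31.3, 51.0, 38.3 and 30.9 to 56.6, 54.2, 58.6 and 61.9 CPM (0.57 ± 0.15, edgeR adjusted p = 0.0343, kept in 1 of 8). The SC_SYN call of Kif13b was also lost with the GC and length trend removed (0.44, edgeR adjusted p = 0.122). Kif26b, at 26.5, 31.4, 24.3 and 29.4 and 35.9, 39.1, 44.5 and 41.0 CPM, rose in SC_SYN (0.48 ± 0.13, edgeR adjusted p = 0.0412), a call lost in each of the 8 fits. Klc1 (-0.15 ± 0.06, edgeR adjusted p = 0.115) and Kif3a (-0.09 ± 0.06, edgeR adjusted p = 0.373) were not called in input_TH.

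Among the other low members, Kif7 and Kif26a fell in input_TH and Kif6 rose. Kif7 had 3.48, 4.07, 2.99 and 4.01 CPM at 3w and 2.50, 1.81, 1.54 and 2.73 CPM at 5m in input_TH (-0.76 ± 0.20, edgeR adjusted p = 0.0161, kept in 5 of 8). Kif26a had 21.0, 20.1, 18.8 and 17.5 and 16.3, 11.3, 12.8 and 12.0 CPM (-0.57 ± 0.12, edgeR adjusted p = 0.00478, kept in all 8), and fell in SC_TH too (-0.68 ± 0.18, edgeR adjusted p = 0.0163, kept in 6 of 8). In input_TH neither gene overlapped between the ages, and in SC_TH Kif26a did. Kif6 rose, from 2.56, 2.44, 2.58 and 1.57 to 3.33, 3.55, 3.08 and 3.92 CPM (0.59 ± 0.17, edgeR adjusted p = 0.0326, kept in 4 of 8, lost without mouse 188, 190, 192 or 194). The Kif6 call was also lost by DESeq2 (0.59, DESeq2 adjusted p = 0.0725), with no filter on low counts and with only the 2 ages compared.

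Mitotic kinesins were near the limit of detection. The 11 genes together gave 6 to 172 reads in a library. Kif11, the motor that pushes spindle poles apart, was the 1 of 4 tested that was called in input_TH, from 2.14, 1.79, 2.49 and 1.73 CPM at 3w to 1.14, 0.907, 1.14 and 0.909 CPM at 5m (-0.99 ± 0.21, edgeR adjusted p = 0.00489), without overlap and kept in all 8 fits. The sum of the 11 was 10.5, 9.52, 11.0 and 9.35 CPM at 3w, 6.36, 5.53, 6.02 and 5.46 CPM at 5m and 6.18, 5.95, 5.59 and 4.82 CPM at 18m in input_TH. In SC_TH it was 11.1, 8.40, 7.63 and 7.43, then 4.82, 4.88, 4.22 and 4.89, then 3.67, 3.80, 4.34 and 3.84 CPM. Every 3w mouse lay above every older mouse in both TH fractions and in SC_SYN, and the groups overlapped in input_SYN. The 18 proliferation markers followed the same order, with 20.8 to 26.8, 11.7 to 13.8 and 10.3 to 12.3 CPM in input_TH, and their part in the result was not tested.

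Promoters of mitotic genes often carry the cell cycle homology region, TTTGAA on either strand (TTCAAA read on the other), a few bases from the start of transcription, so the windows were searched for it. A RefSeq window of 250 bases before to 50 after the start (GRCm38.p6) was found for 34 members, and 9 have none. The motif stood in 9 of the 10 mitotic windows (90%), in 3 of the 24 other members (12.5%; Kif1a, Kif26b and Kif27) and in 5466 of 27025 genes (20.2%). CCAAT on either strand stood in 6 of 10 (60%), 10 of 24 (41.7%) and 41.1%. The mitotic group was chosen for its function and not for its values. A match in a window is a description of its letters. The stretches printed here belong to Kif11, the called member, and to Kif23 and Kif22 for comparison. They run in the direction of transcription with the motif in capitals, at chr19:37376336-37376395 (plus strand), chr9:61946780-61946824 (minus strand) and chr7:127042405-127042464 (minus strand).
Kif11: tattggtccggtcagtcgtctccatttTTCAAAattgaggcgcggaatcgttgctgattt
Kif23: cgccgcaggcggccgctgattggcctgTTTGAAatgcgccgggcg
Kif22: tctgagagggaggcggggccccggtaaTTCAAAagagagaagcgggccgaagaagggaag

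From 5m to 18m, 6 members rose and 1 fell of 33 in input_TH, or 3 and 1 with library size, against 15.5% of all genes called (8.18% higher and 7.35% lower). No member was called in SC_TH, input_SYN or SC_SYN, where edgeR called 2.17%, 0.139% and 0.0140% of all genes and 5, 5 and 7 members had an unadjusted p under 0.05. DESeq2 called none in these 3 either. Klc1 went from 361, 368, 355 and 355 to 408, 495, 429.8 and 438 CPM (0.30 ± 0.06, edgeR adjusted p = 0.00447), without overlap and kept in all 8 fits without a mouse. Klc2 went from 147, 159, 147 and 144 to 159, 196, 180.1 and 196 CPM (0.30 ± 0.08, edgeR adjusted p = 0.0176), the lowest old mouse level with the highest younger one, kept in 6 of 8. Klc3, which overlaps Ercc2 over 28.1% of its exons, rose from 1.44, 1.40, 1.47 and 0.839 to 2.91, 1.84, 2.05 and 2.62 CPM (0.88 ± 0.23, edgeR adjusted p = 0.0176, kept in 6 of 8). These 3 of the 4 light chains rose while no heavy chain was called, with Kif5a at 0.12 ± 0.05, edgeR adjusted p = 0.123. The calls of Klc2 (0.0735, edgeR adjusted p = 0.513) and Klc3 (0.61, edgeR adjusted p = 0.13) were lost with the GC and length trend removed. Kif7 (0.62 ± 0.20), Kif3c (0.17 ± 0.05) and Kif1a (0.15 ± 0.05) rose and Kif2a fell (-0.26 ± 0.07), calls kept in 4, 2, 1 and 3 of 8 fits. The calls of Kif7, Kif3c and Kif1a were also lost with library size and in a fit of only those ages. With the GC and length trend removed, Kif2a was at -0.00574, and 2 members were called in place of 7.

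Tests of the difference itself found few age effects that differed between fractions. No member passed for the change of SC_SYN over SC_TH with age, in either step, where edgeR called 0.0301% and 0.00% of all genes and 2 and 3 members had an unadjusted p under 0.05, and none for SC_SYN over input_SYN (0.00% in both, 2 and 1 members unadjusted). DESeq2 called none in these 4 tests either. For input_SYN over input_TH none passed from 3w to 5m (0.0224%, 3 unadjusted, 0 by DESeq2) and Kif2a from 5m to 18m (2.42%), with input_TH at 59.3, 68.9, 69.3 and 65.8 and then 60.7, 53.4, 56.2 and 48.7 CPM and input_SYN at 37.5, 38.7, 45.8 and 35.4 and then 55.6, 45.3, 60.1 and 40.2 CPM. The difference was 0.60 ± 0.15, edgeR adjusted p = 0.0312, kept in 3 of 8 fits without a mouse, and with the mouse as a block 2 members were called. With the trend on GC content and length removed as well, the Kif2a call was lost (0.21, edgeR adjusted p = 0.624). For SC_TH over input_TH none passed from 3w to 5m (2.33%, 3 unadjusted, 1 by DESeq2), and Kif1c and Kif21b passed from 5m to 18m (1.78%). Kif1c was at 125, 102, 102 and 93.2 and then 116, 122, 118 and 137 CPM in input_TH and 74.1, 89.9, 88.0 and 87.3 and then 70.3, 65.9, 68.5 and 77.5 CPM in SC_TH (-0.48 ± 0.11, edgeR adjusted p = 0.0263). Kif21b was at 132, 169, 147 and 158 CPM in input_TH and 89.9, 109, 99.2 and 92.7 CPM in SC_TH at 18m (-0.39 ± 0.10, edgeR adjusted p = 0.041). Both calls were kept in 2 of 8 fits, without mouse 191 and without mouse 195. With the mouse as a block and that trend removed, both were lost. Kif1c was then -0.42, edgeR adjusted p = 0.0527, and Kif21b -0.27, edgeR adjusted p = 0.0642. The Kif1c call was also lost with library size (-0.43, edgeR adjusted p = 0.0518). Beside them, the nuclear RNA sum in SC_TH was 7518 to 11131 CPM at 5m and 5323 to 6361 CPM at 18m, and its part was not tested.

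Partners of the kinesins were read from 3 lists, with edgeR calls over all genes. On ribosomes at 5m, 13 of 24 kinesin adaptors and cargo linkers were higher in SYN than in TH and 7 lower, 3 of 29 dynein and dynactin genes higher and 17 lower, and 6 of 25 tubulin and microtubule-associated genes higher and 13 lower. Over all genes 32.1% were higher and 35.8% lower in that comparison. With library size the counts were 10 and 11, 2 and 25, and 3 and 18, and the adaptor, dynein and microtubule genes named here kept their direction and call. Among adaptors, Mapk8ip2, which links cargo to light chains, and Clstn3 had the largest rises (2.098 ± 0.14, edgeR adjusted p = 4.71e-12 and 2.01 ± 0.09, edgeR adjusted p = 8.22e-15), and Ppfia2 and Grip1 the largest falls (-1.08 ± 0.11 and -0.95 ± 0.12). Dync1h1, the heavy chain of the minus-end motor dynein, was higher (1.77 ± 0.13, edgeR adjusted p = 1e-11), as was Nde1 (1.13 ± 0.14), while Hook1 and Bicd1, which tie dynein to cargo, were lower (-2.05 ± 0.16 and -1.43 ± 0.16). Map6 and Map4 led the microtubule list upward (1.63 ± 0.13 and 1.07 ± 0.09) and Dcx and Map7d2 downward (-1.82 ± 0.17 and -1.16 ± 0.18). From 3w to 5m in input_TH, 0 adaptors rose and 6 fell, 0 dynein and dynactin genes rose and 1 fell, and 1 tubulin or microtubule gene rose and 12 fell, against 4.76% of all genes higher and 7.05% lower. With library size these counts were 1 and 4, 0 and 1, and 3 and 10. From 5m to 18m they were 5 and 0, 4 and 6, and 11 and 0, against 8.18% and 7.35% of all genes, and 5 and 1, 3 and 8, and 8 and 2 with library size.

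Other kinesin genes outside the naming rule behaved as follows. Kifc2, a minus-end motor of neurons, was higher in SYN on ribosomes at 5m (1.38 ± 0.14, edgeR adjusted p = 6.34e-09) and in input (1.17 ± 0.10, edgeR adjusted p = 5.75e-11), with a mean of 175 CPM in SC_TH and 451 CPM in SC_SYN. Kifc3 was higher as well (0.72 ± 0.10 on ribosomes), a call lost with library size (0.13). Kifap3, the third subunit of the Kif3a motor, was lower on ribosomes at 5m (-0.45 ± 0.12, edgeR adjusted p = 0.00226), as Kif3a and Kif3b were.

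A structural feature was set against the pattern, as a description. The 9 members higher in SYN in all 6 comparisons by TMM had a median annotated 3' untranslated length of 1548 bases (402 to 4452). The 3 lower in all 6 had 400 (68 to 1370), and the 21 other tested members had 541 (3 to 6975). The ranges overlap. The low-count filter favoured the direction called for Kif4 on ribosomes, among the 9, and for Kif9, among the 3. The median of the 3 is the length of Kif9 itself. Under every setting that kept all mice, 5 of the 9 remained. Of the 3, only Kif17 (68 bases) and Kif24 (1370 bases) remained. These lengths therefore cannot decide whether 3' untranslated length goes with the pattern.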

How the data were processed

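RNA of 4 fractions from the cortex of 12 mice was measured in 48 libraries. The authors depleted rRNA, built strand-specific libraries with molecular identifiers, sequenced them single-end on a NovaSeq in runs not told apart by the labels, demultiplexed with bcl2fastq 2.20.0.422, aligned to GRCm38 (TopHat2 2.1) and used featureCounts, without strand, to assign reads to genes. The deposited values are raw counts per Ensembl gene, not normalized. Whether identifiers were used to remove duplicates is not given in the sources used here. Of the 48526 identifiers, 48144 are in GENCODE, and 0.0596% of counts fall on the others. Depth is given as total counts per fraction, and it limits the precision of the low members.

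Levels are CPM with TMM factors over all 48 libraries, and RPKM divides them by exonic kilobases. Tests used edgeR 4.0.16 in R 4.3.3 (filterByExpr, TMM, glmQLFit, glmQLFTest) over all genes, with Benjamini-Hochberg adjustment at 0.05 and members counted afterwards. Ages were compared within each fraction (12 libraries), and compartments and pellet against input in fits of 24 libraries, with interaction terms for age. The standard error is the log2 fold change divided by the square root of F. The calls were tested on simulated data with known changes. Those data had as many rises as falls around a mean shared by all groups. They therefore cannot examine the scaling between SYN and TH. Libraries of the same number come from the same mouse, so numbers pair fractions. Over gene deviations from group means, same-mouse correlations had medians of -0.01 to 0.11 (lowest -0.37, highest 0.36, 12 mice). Ages are separate animals, and p-values of the fits within a fraction measure the spread between these mice. The main fits of 24 libraries had no term for the mouse and took both libraries of a mouse as independent. Their p-values measure the spread between libraries of a group. In no pair of replicates did counts agree within sampling noise (chi-square per degree of freedom 1.89 to 29.5 over 72 pairs). Alternatives were DESeq2 1.42.0, library size, no filter on low counts, a GC and length trend removed by loess, only the 2 ages compared, a replicate block and leaving out each mouse.

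The members and gene lists were chosen with earlier results of these data known. Full values were given for Kif1a, Kif5a, Kif5b, Kif5c, Kif3a, Kif3c, Kif17, Kif21a, Kif21b and Klc1. They were also given, per comparison, for up to 4 members with the largest called change in each direction where the group with the higher level averaged 20 counts or more, and for every member called in an interaction. Other members shown within their role group, and the promoter stretches, were chosen after values were seen.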

Additional observations from a re-analysis of the deposited data

Results flagged for a closer look

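Of 120 groups of 4 mice examined for the 10 motors with full values, 6 held a mouse far from the other 3, and chance alone would give about 1 in 20 groups. Mouse 191 (5m) gave 3 of them: Kif5a in input_TH at 1607 CPM against 1809 to 1848, Kif5c in input_TH at 602 CPM against 652 to 661, and Kif5c in SC_SYN at 1115 CPM against 1366 to 1407. In SC_TH at 3w, Kif21b was 163 CPM in mouse 190 against 151 to 152 and Kif21a was 235 CPM in mouse 188 against 221 to 222. Kif17 was 17.9 CPM in SC_SYN of mouse 198 (18m) against 21.6 to 22.3.

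Age effects that differed between fractions by edgeR's interaction test were those of Kif2a for input_SYN over input_TH (a difference of 0.60 on the log2 scale), Kif21b for SC_TH over input_TH (-0.39) and Kif1c for SC_TH over input_TH (-0.48), all from 5m to 18m. Each of these calls was lost with the mouse as a block and the GC and length trend removed.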

How the results depend on the processing

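Counts of called members held within 1.5 times of the main count under the alternatives that kept all mice, except as follows. Input_TH 18m against 5m gave 7, with 4 by library size, 2 with the GC and length trend removed and 4 in a fit of only those ages. SC_TH 5m against 3w gave 5, with 3 in the fit of only those ages. Input_SYN 5m against 3w gave 1, with 3 by DESeq2, 2 without the filter, 3 with the GC and length trend removed and 3 with only those ages. Input_SYN against input_TH at 18m gave 17, with 28 by library size. The change of input_SYN over input_TH from 5m to 18m gave 1, with 2 by DESeq2, 2 with the replicate block and 0 with the block and the GC and length trend removed. The change of SC_TH over input_TH gave 0 from 3w to 5m, with 1 by DESeq2, and 2 from 5m to 18m, with 5 by DESeq2, 1 by library size and 0 with the block and the trend removed. Beside the Kif9 and Kif7 calls given in the report, the replicate block changed the call of no other named member.

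With a mouse left out, counts ran from 7 (without 190) to 13 (without 191) in input_TH 5m against 3w and from 1 (without 198) to 11 (without 195) in 18m against 5m, from 2 (without 191) to 7 (without 192) in SC_TH 5m against 3w and from 0 to 1 (without 191) in 18m against 5m, from 0 to 2 (without 192) in input_SYN 5m against 3w, and from 0 (without 193 or 194) to 2 in SC_SYN 5m against 3w. They ran from 21 to 22, 24 to 26 and 18 to 23 for SC_SYN against SC_TH at 3w, 5m and 18m, from 18 to 23, 18 to 22 and 15 to 17 for the inputs, from 4 to 5, 4 to 5 and 2 to 3 for SC_SYN against input_SYN, and from 14 to 18, 19 to 21 and 22 to 24 for SC_TH against input_TH. The interactions ran from 0 to 1 for input_SYN over input_TH from 5m to 18m, and for SC_TH over input_TH from 0 to 1 (without 192) and from 0 to 5 (without 191).

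Over all called members, 27 values turned sign with library size, 18 in input_SYN against input_TH and 9 in SC_SYN against SC_TH. Among the genes named by rule in each comparison, reversed values were, by library size, Kif21b in SC_SYN against SC_TH at 3w (-0.14) and 5m (-0.00452), Kif21b (-0.35 and -0.36) and Klc1 (-0.34 and -0.41) in input_SYN against input_TH at 3w and 5m, Kif21a there at 18m (-0.28) and Klc1 in SC_SYN from 5m to 18m (0.0396). With the GC and length trend removed they were Kif1a in SC_SYN from 3w to 5m (-0.13) and, from 5m to 18m, Klc1 (0.20), Kif21b (0.00804), Kif5c (-0.0215) and Kif5b (-0.17). With the block and that trend removed they were, in input_SYN against input_TH, Kif21b at 3w (-0.0212) and 5m (-0.11), Klc1 (-0.00419) and Kif2a (0.44) at 5m. With a mouse left out, Kif5a in SC_SYN from 3w to 5m ranged from -0.12 to 0.0642, and from 5m to 18m Kif5c from -0.00294 to 0.11 and Klc1 from -0.11 to 0.10. The cause of these shifts was not tested. Over the called values of the genes named by rule, and all alternatives, 1363 kept direction and call, 216 lost the call and 11 reversed. Input_SYN, with the lowest depth, limits low members most.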
